A study of Mus musculus with 4 samples.

Results

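Glucose enters fibroblasts through a membrane transporter and is carried to lactate by a chain of cytosolic enzymes, and 10 genes of this chain were followed in mouse embryonic fibroblasts (MEFs) with and without Ip6k1. They were Slc2a1, the main glucose transporter of fibroblasts; Hk1 and Hk2, the hexokinases; Gpi1; Pfkl and Pfkp, subunits of phosphofructokinase; Aldoa; Pgk1; Pkm2, the array's name for the pyruvate kinase gene Pkm; and Ldha. Members were the probes, not controls, whose gene name in the array files equals one of these names. This gave 23 of the 41174 probes. Ip6k1 encodes an inositol hexakisphosphate kinase, which adds a phosphate to the fully phosphorylated inositol ring and so makes inositol pyrophosphates. In yeast these molecules have been linked to transcription of glycolytic genes, which is the question asked here of the same steps in mouse cells.

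The 4 lines were 2 Ip6k1+/+ and 2 Ip6k1-/- MEF lines, each from its own E14 embryo, and all embryos came from a single mating of heterozygous mice. All 4 lines, controls included, had been immortalised with SV40 large T antigen and were grown without other treatment. SV40 large T antigen inactivates p53 and the retinoblastoma protein, so the controls are not unmodified fibroblasts. Cy3-labelled RNA of each line was read on 1 single-colour Agilent array, and the arrays shared a slide. Values are log2 of the background-corrected signal minus the 75th percentile of that array, so that 0 is the 75th percentile and a difference of 1 is 2-fold. Levels of different probes are not comparable, since each probe binds with its own strength, so comparisons were made within a probe, apart from sums over marker probes.

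The signal was well above background, by the extraction software's own test, for between 52% and 55.5% of the probes on each array. The targeted gene matched the labels: Ip6k1 probe A_51_P213766 read 0.35 and 0.39 in the Ip6k1+/+ lines, and neither Ip6k1-/- line was well above background. On this probe Ip6k1+/+ MEFs were at least 34.0-fold higher, a bound set by the lowest signal well above background on the Ip6k1-/- arrays. The limma adjusted p of 0.0355 belongs to the difference as read, -7.21, and not to this bound. A second probe, A_52_P413035, was at least 32.7-fold higher. The third, A_51_P103718, stayed well above background in every line, at 2.46 and 2.61 against -1.98 and -1.23, which is -4.13 apart (standard error 0.33) and not called (limma adjusted p = 0.367). Of 12 fibroblast markers, 10 were well above background on all 4 arrays. The 7 also measured within the scanner's range summed to 183 and 249 times the 75th percentile in Ip6k1+/+ lines and to 149 and 130 times in Ip6k1-/- lines, on the linear scale, without overlap. Such a sum is weighted towards the brightest probes. Over the 11 tested the median log2 difference was -0.60, 7 had a lower Ip6k1-/- mean, and Pdgfrb (-1.20) and Dcn (-2.40) passed the 2-fold cutoff as lower. The other 4 had a higher mean. For Col1a2, S100a4 and Vim, saturated on 3 or 4 arrays, that difference is not a measurement, though the median includes it. Only Thy1 among them was in range, at 1.03, with Ip6k1+/+ lines at 1.41 and 6.02 and Ip6k1-/- lines at 3.98 and 5.52. Among markers of other cell types, Cdh1, Pecam1, Ptprc, Myod1, Gfap and others were well above background on no array. Krt18, Kdr, Cd68, Cd34, Acta1, Tubb3 and Nes, genes of the same lists, were so on all 4. Sox2 and Krt5 were so in both Ip6k1+/+ lines only, Epcam, Krt8 and Pax6 in Ip6k1+/+ replicate 2 only, and Csf1r in Ip6k1+/+ replicate 1 only. Sox2, at -2.06 and -4.69 in Ip6k1+/+ lines and -5.37 and -6.85 in Ip6k1-/- lines, passed the 2-fold cutoff as lower. Cd34 passed it too, at 2.62 and 3.71 in Ip6k1+/+ lines and 1.06 and 1.57 in Ip6k1-/- lines, and Kdr differed by 1.56. None of these markers was called by limma, and their part in the results was not tested. In bulk RNA, fewer cells of a type and less RNA per cell cannot be told apart.

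No difference between the genotypes was detectable for the glycolysis genes with 2 lines each. The 3 largest, of Ldha, Pkm2 and Pfkl, put the Ip6k1-/- mean 0.29 to 0.36 above the Ip6k1+/+ mean on the log2 scale, and those of Slc2a1, Gpi1, Pfkp and Hk2 were under 0.1 in size. The 95% interval excluded a 2-fold difference in either direction for 7 of the 9 genes measured in range, all but Hk1 and Ldha. A 2-fold rise of Gpi1 or Pgk1 would have left the scanner's range. For these genes the upper bound thus follows from being in range and says nothing about such a rise. None of the 10 members was called higher or lower in Ip6k1-/- MEFs by limma's test at an adjusted p of 0.05 (Benjamini-Hochberg, over 21572 probes). Over all 14334 gene names tested, 0.014% were called, 0% as higher and 0.014% as lower, so that 0 of 10 does not set the members apart. At an unadjusted p below 0.05 the count was also 0 members, beside 531 of all gene names. No member passed the 2-fold cutoff, which 1.51% of gene names passed as higher and 2.44% as lower. The cutoff required means 1 or more apart on the log2 scale, and no Ip6k1-/- line closer than 0.9 to the Ip6k1+/+ mean. Student's t-test called 0 members and 0 of all 14334 gene names, so it cannot set the members apart.

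Of the 23 member probes, 20 were well above background on all 4 arrays, 2 on none, and 21 entered the test. The 2 Aldoa probes were saturated on every array and 1 Pgk1 probe on 2 arrays, which left 17 probes of 9 genes measured within range on all arrays. Over these 17 the log2 difference, Ip6k1-/- minus Ip6k1+/+, lay between -0.14 and 0.40. It was above 0 for 14 and below 0 for 3, with several probes of 1 gene among them. By gene, on main probes, it was above 0 for 7 and below 0 for 2, beside 54.9% of all gene names with a higher Ip6k1-/- mean. For 9 of the 17 probes the 95% interval excluded a 2-fold difference in either direction, with the limit given above for a rise of Gpi1 or Pgk1. For each gene with several such probes the brightest is given first.

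**Figure D1:**
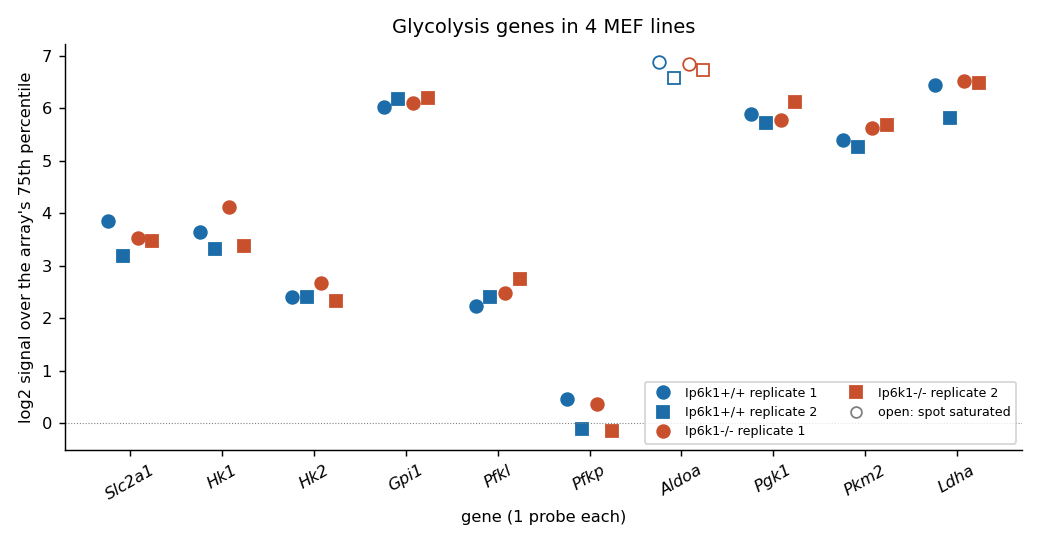
Each gene is shown by 1 probe, with the log2 signal over the array's 75th percentile on the y axis and 1 point per MEF line (blue Ip6k1+/+, red Ip6k1-/-, open points saturated spots). The lines of both genotypes lie among each other for most genes, and Pfkl, Pkm2 and Ldha have both Ip6k1-/- lines above both Ip6k1+/+ lines.

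Glucose uptake was represented by Slc2a1, which has 1 probe. Its log2 signal was 3.85 and 3.19 in Ip6k1+/+ lines, against 3.53 and 3.46 in Ip6k1-/- lines. Both Ip6k1-/- lines lay between the Ip6k1+/+ lines. The difference was -0.02 (standard error 0.28, 95% interval -0.74 to 0.70, limma adjusted p = 0.997), or 0.986-fold with an interval of 0.597 to 1.63. A 2-fold change of this transporter was thus outside the interval in both directions.

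Hexokinase traps glucose in the cell by phosphorylating it, and the isoforms Hk1 and Hk2 sit on the outer mitochondrial membrane. The main Hk1 probe read 3.64 and 3.32 in Ip6k1+/+ lines and 4.12 and 3.37 in Ip6k1-/- lines. The genotypes overlapped, since 1 Ip6k1-/- line lay between the Ip6k1+/+ lines and the other above both. The difference was 0.27 (standard error 0.31, 95% interval -0.55 to 1.09, limma adjusted p = 0.993). Another 3 Hk1 probes were well above background on all arrays, with differences of 0.40, 0.35 and -0.14, and a further 2 on none. The probe at -0.14 was the only one of the 4 measurable Hk1 probes with a lower Ip6k1-/- mean, and at -1.72, -2.36, -1.89 and -2.48 it had a line spread larger than that difference. Hk2, whose hexokinase is the insulin- and hypoxia-responsive form, has 1 probe, which read 2.41 and 2.40 in Ip6k1+/+ lines and 2.66 and 2.33 in Ip6k1-/- lines. The Ip6k1+/+ lines lay between the Ip6k1-/- lines, with a difference of 0.09 (standard error 0.21, 95% interval -0.46 to 0.65).

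Gpi1 encodes glucose-6-phosphate isomerase, the enzyme that turns glucose 6-phosphate into fructose 6-phosphate. Its main probe is printed 10 times on the array and read 6.02 and 6.17 in Ip6k1+/+ lines and 6.10 and 6.19 in Ip6k1-/- lines. The genotypes overlapped. The difference was 0.05 (standard error 0.17, 95% interval -0.39 to 0.49), among the narrowest intervals of the set. The other Gpi1 probe was near the limit of detection, at -4.61 and -4.79 in Ip6k1+/+ lines, and under it in Ip6k1-/- lines, at -4.90 and -5.15. Set against that limit the Ip6k1+/+ signal was at least 1.01-fold higher, a bound near no difference.

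Phosphofructokinase makes the committed step of glycolysis, and its tetramer is built from liver-type (Pfkl), platelet-type (Pfkp) and muscle-type (Pfkm) subunits. Pfkl read 2.22 and 2.41 in Ip6k1+/+ lines and 2.47 and 2.74 in Ip6k1-/- lines. Both Ip6k1-/- lines were above both Ip6k1+/+ lines, by 0.29 on average (standard error 0.21, 95% interval -0.26 to 0.85, limma adjusted p = 0.993). Pfkp read 0.45 and -0.11 in Ip6k1+/+ lines and 0.36 and -0.16 in Ip6k1-/- lines, so that each genotype had 1 line near the array's 75th percentile and 1 above it. The difference was -0.07 (standard error 0.34, 95% interval -0.95 to 0.82). The other Pfkp probes differed by 0.36 and 0.14. The main Pfkp probe is shown because its 60 bases lie over 2155 bases of genome, and so it crosses a splice junction and reads spliced RNA.
Pfkp probe A_51_P378856 (mm9, chr13:6581718-6583872, minus strand): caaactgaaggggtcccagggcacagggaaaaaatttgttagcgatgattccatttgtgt

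Aldoa, the aldolase that splits fructose 1,6-bisphosphate, could not be compared. Both its probes were saturated on all 4 arrays, so the scanner gave only a floor and no difference or fold is given. Bright members came close to this ceiling. The lowest saturated signal on the 4 arrays was 6.58 and 6.29 in Ip6k1+/+ lines and 6.60 and 6.44 in Ip6k1-/- lines. The Ldha probe of Ip6k1-/- replicate 1 lay 0.09 under it, that of replicate 2 lay at about its level, and the Gpi1 and Pgk1 probes came within 0.12 and 0.33 of it on their closest array.

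Pgk1, the first ATP-yielding kinase of the pathway, is X-linked and overlapped between genotypes. Its main probe read 5.88 and 5.72 in Ip6k1+/+ lines and 5.78 and 6.11 in Ip6k1-/- lines, a difference of 0.15 (standard error 0.20, 95% interval -0.37 to 0.67). The second Pgk1 probe shares 38 of its 60 bases with the main probe, so the 2 are not independent readings. It had 1 of 10 saturated spots in Ip6k1+/+ replicate 2 and 9 of 10 in Ip6k1-/- replicate 2.

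Pkm2 catalyses the last ATP-yielding step, and had the lowest unadjusted p of the members. It read 5.40 and 5.25 in Ip6k1+/+ lines and 5.63 and 5.68 in Ip6k1-/- lines on its main probe. Both Ip6k1-/- lines were above both Ip6k1+/+ lines, by 0.33 (standard error 0.17, 95% interval -0.11 to 0.78), or 1.26-fold, with an unadjusted limma p of 0.11 and an adjusted p of 0.993. The probe A_52_P150212 read 4.66 and 4.61 against 4.78 and 5.02, a difference of 0.27, and A_52_P328249 read 1.03 and 0.65 against 1.11 and 1.05, a difference of 0.24. All 3 probes of the gene thus had both Ip6k1-/- lines above both Ip6k1+/+ lines, though they read the same RNA samples and are not separate evidence. A_52_P328249 lies apart from the others on the genome, and whether it reads the same transcript was not looked up. Pkm makes the M1 and M2 isoforms by alternative splicing, and these values are not split by isoform.

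Ldha, the lactate dehydrogenase subunit that turns pyruvate into lactate, had the largest difference among the main probes. It read 6.44 and 5.82 in Ip6k1+/+ lines and 6.51 and 6.47 in Ip6k1-/- lines, both above both Ip6k1+/+ lines, by 0.36 (standard error 0.25, 95% interval -0.31 to 1.02, limma adjusted p = 0.993). Ip6k1+/+ replicate 2 was the low line, and the other Ip6k1+/+ line lay near the Ip6k1-/- lines. The difference was 0.05 without Ip6k1+/+ replicate 2 and 0.66 without Ip6k1+/+ replicate 1. The second probe repeated this order only in part, at 6.39 and 5.55 against 6.30 and 6.14, with a difference of 0.25 and overlapping genotypes. That probe spans 930 bases of genome with its 60 bases, so it too crosses a splice junction.
Ldha probe A_51_P364146 (mm9, chr7:54109426-54110355, plus strand): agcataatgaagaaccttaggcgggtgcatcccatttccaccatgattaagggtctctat

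**Figure D2:**
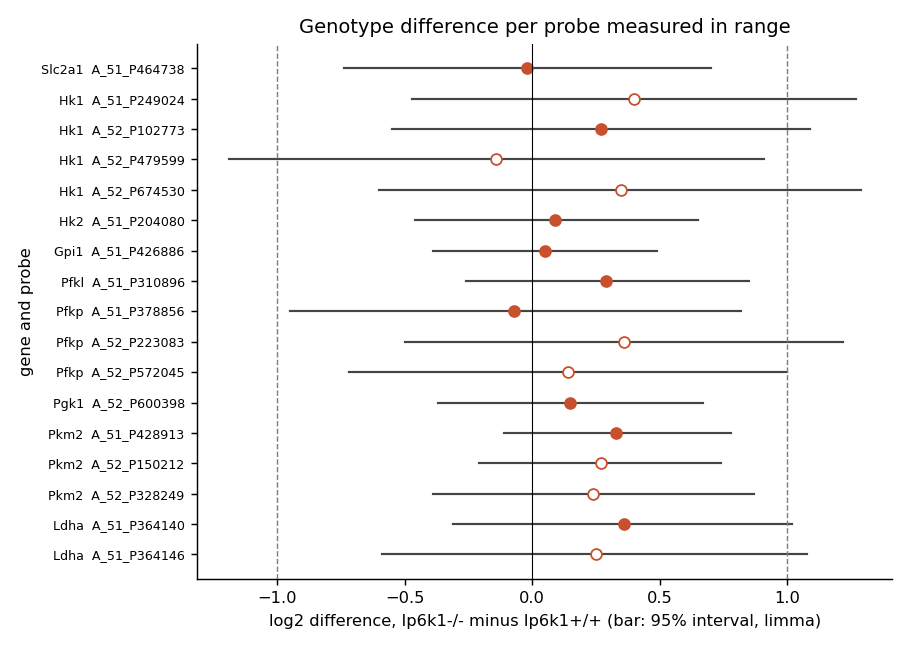
The x axis gives the log2 difference of Ip6k1-/- minus Ip6k1+/+ MEFs for each of the 17 member probes measured in range, with its 95% interval from limma as a bar and dashed lines at a 2-fold difference. Filled points are the main probe of a gene, and every interval includes 0.

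In all, 3 of the 9 members measured in range had both Ip6k1-/- lines above both Ip6k1+/+ lines and 0 had both below, where 18.2% and 13.2% of all gene names did. Each of the 9 had a difference under 0.5 in size, as did 79.7% of all gene names. Their median difference was 0.15, beside 0.04 over all gene names. With Aldoa's saturated reading it was 0.12, and 0.22 and 0.08 without Ip6k1+/+ replicates 1 and 2, and 0.04 and 0.18 without Ip6k1-/- replicates 1 and 2. By role the median was 0.09 for uptake and phosphorylation, 0.05 for upper glycolysis Aldoa's saturated reading included, and 0.33 for the lower steps with Ldha. These medians rest on 3 or 4 genes each and were not tested. Which members lay without overlap changed when 1 array was left out, where 1 line is set against 2 and separates more easily.

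The lines of 1 genotype differed from each other about as much as the genotypes did. For 7 of the 9 genes the genotype difference was smaller than the larger of the 2 line differences, and for 4 it was smaller than both. Single lines vary more than means of 2 lines, so the genotype difference tends to be the smaller one even without an effect. The share over all gene names is not given, so these counts do not set the members apart. Slc2a1 differed by 0.66 between the Ip6k1+/+ lines and 0.07 between the Ip6k1-/- lines, with 0.02 between genotypes. Hk1 differed by 0.32 and 0.74 within genotypes and Pfkp by 0.56 and 0.53. The genotype difference exceeded both line differences only for Pfkl and Pkm2.

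**Figure D3:**
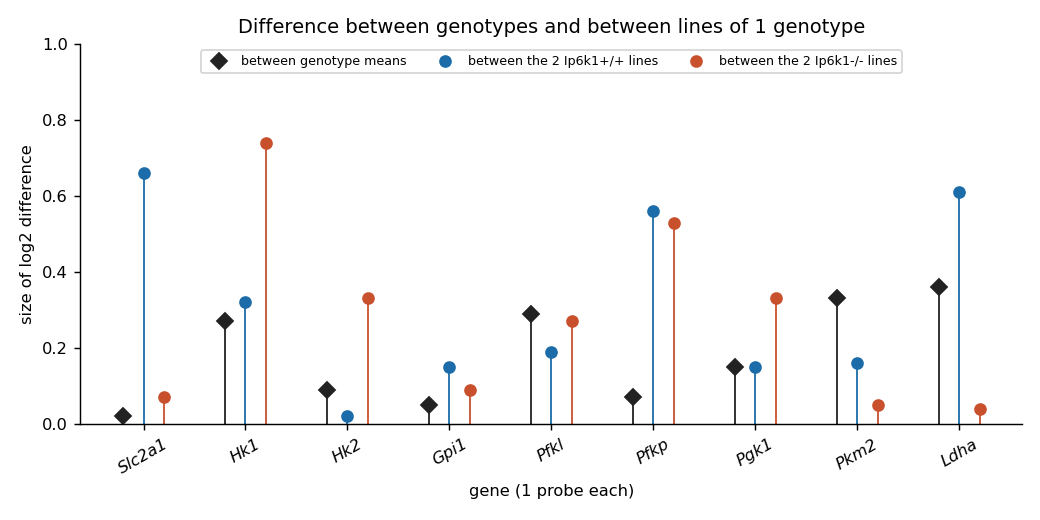
The y axis gives the size of the log2 difference between genotype means (black), between the 2 Ip6k1+/+ lines (blue) and between the 2 Ip6k1-/- lines (red) for the 9 genes measured in range. The black mark is the highest of the 3 for Pfkl and Pkm2.

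Repeated spots of a probe on 1 array varied much less than its arrays did. The Gpi1 probe had a standard deviation of 0.014 to 0.021 over 8 to 10 usable spots of an array, while its arrays differed by up to 0.17 in mean. The second Pgk1 probe varied by 0.026 to 0.062 over 10 spots. Spots of 1 array share 1 RNA and do not count as replicates of the genotype.

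**Figure D4:**
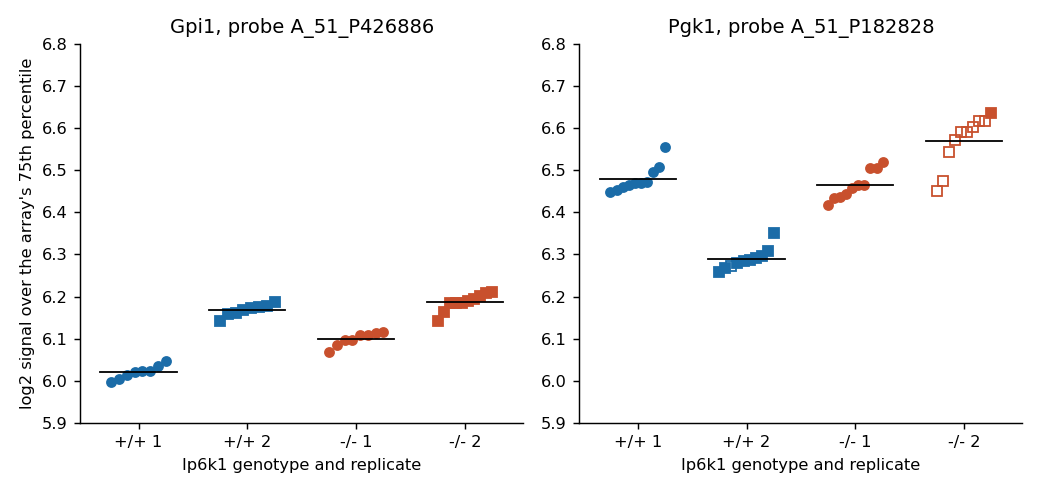
Each point is 1 spot of the Gpi1 probe (left) or the second Pgk1 probe (right), on the log2 scale over the array's 75th percentile, and horizontal bars are array means. Spots of an array lie close together, and most Pgk1 spots of Ip6k1-/- replicate 2 were saturated (open).

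The rest of the pathway was examined with lists of genes for neighbouring steps, 108 genes on the array of which 87 were tested. None was called by limma with Benjamini-Hochberg adjustment, while 2 had an unadjusted p below 0.05, the stress-induced Ddit4 at -0.80 (standard error 0.24) and the collagen prolyl hydroxylase subunit P4ha1 at -0.55 (standard error 0.20). As higher, 0 passed the 2-fold cutoff, and as lower, 1. This was Selenbp1, a selenium-binding protein, at -1.24 and -2.83 in Ip6k1+/+ lines and -3.53 and -6.82 in Ip6k1-/- lines, the last not well above background. It was not counted where a probe had to be well above background on all 4 arrays. More genes passed in both directions when 1 array was left out and 1 line stood alone, in these lists as over all gene names. Both Ip6k1-/- lines lay above both Ip6k1+/+ lines for 10 of the 87 genes and below for 19, beside 18.2% and 13.2% of all gene names, and the median difference was -0.11, beside 0.04.

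The other enzymes and transporters of glycolysis (16 tested of 29 on the array) had a median of 0.03. Their difference was highest for the high-affinity glucose transporter Slc2a3, at 0.62 (standard error 0.44), with Ip6k1+/+ lines at -1.35 and -2.41 and Ip6k1-/- lines at -1.31 and -1.21. Among genes well above background on all arrays it was lowest for the aldolase Aldoc, at -0.90 (standard error 0.92), where 1 Ip6k1-/- line read -3.71 and the other -1.14. The transporter Slc2a10 was lower still, at -1.89 (standard error 0.77, limma adjusted p = 0.993), with Ip6k1+/+ lines at -2.61 and -1.70 and Ip6k1-/- lines at -5.04, not well above background, and -3.05. The enolase Eno1 was at 0.61 (standard error 0.37) with Ip6k1+/+ lines at 1.67 and 2.28 and Ip6k1-/- lines at 2.21 and 2.97. The transporter Slc2a8 was at -0.55 (standard error 0.34), the lowest transporter well above background on all arrays. The muscle-type subunit Pfkm was at -0.35 (standard error 0.21), with both Ip6k1-/- lines (2.54 and 2.26) below both Ip6k1+/+ lines (2.73 and 2.76), the opposite order to Pfkl. Tpi1 was at 0.04, Gapdh at 0.11, Pgam1 at 0.32 with 1 of 4 arrays saturated, and Ldhb at -0.74 (standard error 0.61). No array had Hk3 well above background. None of those tested had a limma adjusted p below 0.993.

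The bifunctional enzymes that set fructose 2,6-bisphosphate, the activator of phosphofructokinase, had a median of 0.04, from Pfkfb3 at 0.22 to Pfkfb4 at -0.07. Lactate and pyruvate transporters had a median of -0.10, from the lactate carrier Slc16a1 at 0.48 (1.83 and 2.26 against 2.45 and 2.61) to the mitochondrial pyruvate carrier Brp44l at -0.41. The lactate exporter Slc16a3 was at -0.35. Pyruvate dehydrogenase and its kinases had a median of 0.02, from Pdhx at 0.30 to Pdk1, which restrains the complex, at -0.52. For Pdk1 the low Ip6k1+/+ line, at -1.85, lay under both Ip6k1-/- lines, at -1.55 and -1.52.

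Among routes that branch off, the pentose phosphate pathway had a median of 0.14, from the transketolase Tkt at 0.56 to H6pd at -0.51, with 3 of 8 genes above and 2 below without overlap, beside 18.2% and 13.2% of all gene names. Gluconeogenesis, with 3 genes tested, had a median of -0.20, from Pcx at -0.09 to Pck2 at -0.59. Glycogen metabolism had a median of -0.26, with the glycogen synthase Gys1 at -0.36.

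Glycolysis genes are classical targets of the hypoxia-inducible factors, whose own genes and regulators were listed together with Myc and Mlxip, other transcription factors of glycolysis genes. These 10 tested genes had a median of -0.13, from the oxygen-sensing hydroxylase Egln1 at 0.43 to Hif1a at -0.52 (standard error 0.28, 2.12 and 1.51 against 1.21 and 1.38). Of 20 hypoxia-induced genes that are not glycolysis enzymes, 16 had a lower mean in Ip6k1-/- MEFs, as did 45.1% of all gene names. Without overlap, 6 were below and 0 above, beside 13.2% and 18.2% of all gene names, and the median was -0.37. Selenbp1, described above, is one of these 20. Among those well above background on all arrays, Car12, a carbonic anhydrase, was highest at 1.34 (standard error 1.04), and the vasodilator peptide gene Adm lowest at -1.54 (standard error 1.26), with Ip6k1+/+ lines at 2.61 and -0.45 and Ip6k1-/- lines at -1.59 and 0.67. Neither was called, with a limma adjusted p of 0.993, though normexp correction on all spots called Adm (limma adjusted p = 0.00425). That setting called 25 gene names as higher and 138 as lower over the whole array. The difference between this list and the members was not tested.

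**Figure D5:**
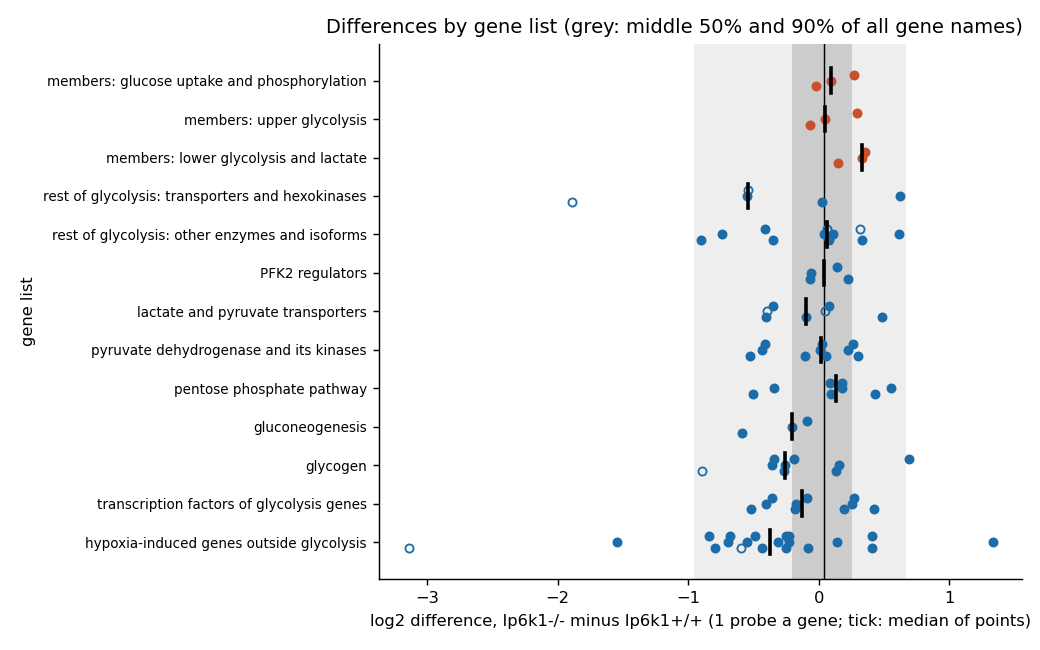
Each point is 1 gene, placed by its log2 difference of Ip6k1-/- minus Ip6k1+/+ MEFs on the x axis and by its list on the y axis (red members without Aldoa, blue other lists, open points not well above background or saturated on some array, ticks medians). All members lie between -0.07 and 0.36, and the hypoxia-induced genes outside glycolysis have their median at -0.37.

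The upstream sequence of the members was searched for the core letters bound by hypoxia-inducible factors, ACGTG or GCGTG, on both strands, and for CACGTG, the E-box bound by Myc and carbohydrate-response factors, which contains ACGTG on each strand. RefSeq windows of the GRCm38.p6 build gave 250 bases upstream of a start, with 15 windows for the 10 members, Pkm2 being matched through Pkm. ACGTG or GCGTG was found in 11 of the 15 windows (73.3%) and in 38.6% of all 32851 windows, and in at least 1 window of 9 of the 10 members. Gpi1 was the member without it. CACGTG was found in 1 member window, of Ldha, and in 6.0% of all windows. Of the Ldha window's 5 matches, those inside the 2 CACGTG are counted once per strand. Some windows of 1 gene overlap, and a match is a description of letters, not a bound site. The windows of Ldha and Pgk1 are shown because these are textbook hypoxia-responsive promoters, with the matched letters in capitals and the start just after the last base.
Ldha upstream (GRCm38.p6, chr7:46845554-46845803, plus strand): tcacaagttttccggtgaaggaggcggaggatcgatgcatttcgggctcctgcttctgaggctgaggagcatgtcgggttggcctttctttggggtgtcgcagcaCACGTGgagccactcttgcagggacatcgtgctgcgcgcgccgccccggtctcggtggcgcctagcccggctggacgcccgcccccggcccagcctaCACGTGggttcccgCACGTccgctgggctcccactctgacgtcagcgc
Pgk1 upstream (GRCm38.p6, chrX:106186850-106187099, plus strand): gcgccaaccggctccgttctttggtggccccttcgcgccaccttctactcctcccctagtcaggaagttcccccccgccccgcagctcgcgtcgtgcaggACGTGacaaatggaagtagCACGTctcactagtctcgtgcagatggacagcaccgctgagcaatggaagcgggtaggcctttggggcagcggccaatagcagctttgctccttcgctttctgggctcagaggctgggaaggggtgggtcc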

How the data were processed

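RNA of 4 MEF lines was measured on single-colour Agilent arrays. The authors deposited scanner files with the spot intensity on a linear scale, extracted and background-corrected with Feature Extraction 10.5.1.1, and a table of log2 values that the authors normalized by a 75th percentile shift in GeneSpring. These deposited log2 values were used only as an alternative. Apart from an offset of 0.08 to 0.11 on each array, they matched the values computed here within a median of 0.0025.

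The deposited processed intensity was taken to log2 here, and each array's 75th percentile over its 43379 non-control spots was subtracted. Spots flagged as outliers (96 to 133 per array) were left out and spots of 1 probe averaged. A probe was tested if both arrays of 1 or both genotypes had it well above background. The main probe of a gene was the brightest one well above background and unsaturated on all arrays. The test was limma's moderated test (version 3.58.1, R 4.3.3; lmFit, then eBayes with a trend in the variance), adjusted by Benjamini-Hochberg over every tested probe. This was tested on simulated data. With 2 lines per genotype, p-values measure only the spread between these lines, and the number of arrays limits the precision. Through limma's moderation, that spread is drawn partly from the other tested probes and not from the probe alone. Slide could not serve as a block, since all arrays share it.

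The members and lists were chosen with earlier results of these data known. In each list of other genes the text names the highest and lowest difference among main probes well above background and unsaturated on all arrays, isoform counterparts of members, and genes past the 2-fold cutoff. One gene that this rule names is not reported here. Pdgfrb, Dcn, Thy1, Cd34, Kdr, Slc2a10, Gys2, Ddit4 and P4ha1 were named after their values were seen. So were Sox2, Krt5, Epcam, Krt8, Pax6, Csf1r, Col1a2, S100a4 and Vim. Probe positions are those of the array files (mm9). Exon and UTR annotation of that build was not used here. Alternatives were normexp correction of the background (offset 50), normalization by quantiles or the median, other filters and tests, a block for replicate number, and dropping 1 array at a time. Python 3.11.15 was used for the sequences and figures.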

Additional observations from a re-analysis of the deposited data

How the results depend on the processing

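Of the 18 alternatives, none that kept all 4 arrays called a member by its test. The lowest adjusted p of a member by that test lay between 0.523 and 0.997 there. Over all gene names these settings called 0 to 2, apart from normexp on all spots, with 25 as higher and 138 as lower. An outcome of 0 members thus does not set the members apart. No member passed the fold cutoff as higher under any of the 18, and as lower 1 did under normexp on all spots, the dim second Gpi1 probe. Of the members' differences under the alternatives, 149 kept their direction and 13 turned it. Normexp on all spots gave a members' median of 0.39, a median difference between Ip6k1+/+ lines of -0.68 and a Slc2a1 difference of 0.22. In the wider lists it gave 1 call (Adm) and 4 genes past the cutoff as lower. Over all 14334 gene names it called 25 as higher and 138 as lower, and 1035 passed the cutoff as lower. Ip6k1+/+ replicate 2 had 5 spots below their local background, which reached 23270 there, and 0 such spots were on the other arrays. Without them the members' median was 0.11, the difference between Ip6k1+/+ lines -0.19 and the calls 0, and the wider lists had 0 genes past the cutoff as lower, the same number as with probes well above background on all 4 arrays. Quantile normalization gave 0.05 between Ip6k1+/+ lines and -0.01 for Gpi1, and median normalization 0.03 for Slc2a1. The deposited log2 values gave 2 wider genes past the cutoff as lower, beside 359 of all 14342 gene names. A mean difference alone gave 1 as higher and 3 as lower, beside 362 and 745 of all 14334. With no filter on dim probes 21 wider genes lay above without overlap, their share over all gene names not given, and the median over all gene names was 0.18. Genes well above background on no array entered there. One was Gys2, at -7.25 and -7.49 in Ip6k1+/+ lines and -7.07 and -6.99 in Ip6k1-/- lines. The mean over probes of a gene gave 1 member below without overlap, -0.14 for Gpi1 and 0.14 for Pfkp. The cause of these changes was not tested.

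Leaving out 1 array in turn leaves a lone line that is assumed to vary like the others. Counts made this way carry no share over all gene names here, so they do not set the members or the wider lists apart. Members above without overlap then numbered 4 to 7 and below 0 to 3, and wider genes 21 to 25 and 33 to 39. Past the cutoff, wider genes numbered 1 to 5 as higher and 3 to 8 as lower. Differences ranged from -0.35 to 0.31 for Slc2a1, from -0.10 to 0.64 for Hk1, from -0.07 to 0.26 for Hk2, from -0.03 to 0.12 for Gpi1, from -0.35 to 0.21 for Pfkp, from -0.01 to 0.31 for Pgk1, from 0.16 to 0.42 for Pfkl, from 0.25 to 0.41 for Pkm2 and from 0.05 to 0.66 for Ldha. The members' median ranged from 0.04 to 0.22.

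The labels do not tie the replicate numbers together. Replicate 1 minus replicate 2 correlated at 0.48 between genotypes over 21572 probes. A replicate block moved the lowest adjusted p of a member to 0.712, that of Pkm2, and changed no call, with 0 members called and 2 gene names over all. Saturation limits Aldoa and the bright Ldha, Gpi1 and Pgk1 probes.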
